A study of Mus musculus with 4 samples.

Results

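Processed pseudogenes took a large part of the counts in long-read RNA sequencing of the mouse embryonic forebrain wall, and the 65 most abundant ones were examined here. They were selected on their raw counts, as the rows of the gene count table that GENCODE M21 annotates as processed pseudogenes and whose counts sum to 200 or more over 4 libraries. They are 65 of 16449 rows in all and 65 of 977 processed pseudogene rows. Since the summed count chose them, their levels are given as a description.

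The libraries were made from poly(A)-enriched RNA of the dorsal and medial palliums, which form the neocortex and hippocampus, of mouse embryos at E11.5. The study listed all 4 libraries as homozygous for a floxed Tut1 allele. The 2 WT libraries carried no Cre, and the 2 labelled Tut1 knockout, called Tut1_KO here after that label, carried Emx1-Cre, which recombines the allele in the stem cells of the dorsal and medial pallium. The number of embryos in a library is not stated, so p-values measure only the spread between these samples, which may be technical.

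A processed pseudogene arises when an mRNA is reverse-transcribed and inserted elsewhere in the genome. The copy has no introns, and it often keeps little or nothing of a promoter. Genes with abundant mRNA in the germ line, such as those for ribosomal proteins and Gapdh, have left the most copies. A young copy can match the coding sequence of its parent gene base for base, and a read of the parent mRNA can then align to either. How reads with several equal alignments were counted is not stated in the sources used here, so a count of a processed pseudogene below is the number of reads assigned to it, and transcription of that locus cannot be told apart from transcription of the parent gene. In bulk samples, fewer cells of a type and less RNA per cell cannot be told apart either.

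The libraries held 305642 to 397150 counts over all genes. Tut1, the targeted gene, had 6 and 11 counts in WT but 29 and 25 in Tut1_KO, so its transcript was not lower under the knockout label. Recombination removes a single exon, whose absence a total over the gene does not show. WT replicate 1 was the only library with Xist counts (64) and the only one without counts of 4 Y-linked genes, against 41 to 78 in the others. The 8 markers of pallial progenitors were all present and summed to 1922 to 2135 CPM (counts scaled to the library size and by TMM) in WT and 1257 to 1386 CPM in Tut1_KO. Markers of microglia summed to 89.4 to 93.9 CPM and 292 to 345 CPM, those of mesenchyme to 81.8 to 209 CPM and 233 to 353 CPM, those of endothelium to 39.4 to 55.9 CPM and 86.8 to 93.0 CPM, and those of ventral forebrain to 0 to 44.7 CPM and 90.3 to 138 CPM (3 of 4 markers, Gad1 not being analysed here). Red cell markers overlapped, at 794 to 1103 CPM and 861 to 1260 CPM. The part of these differences in the results below was not tested.

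Each processed pseudogene was matched to the protein-coding transcript of GENCODE M21 that it resembled most, by blastn. All 65 had a match, to 52 different genes, and all 65 were single-exon. The identity to the matched transcript had a median of 99.8% and a lowest value of 98.1%, in Rpl7a-ps5. Next above it were Gm3226 and Gm17383, both matching the alpha-tubulin gene Tuba1b, Rpl36-ps3 and Gm8730, at 98.7% each. Of the 65, 24 were identical to the matched transcript over their whole length and 18 differed from it by exactly 1 base with no gap. Of the 65 alignments, 62 lay inside the coding sequence, and 59 of the pseudogenes held all of it up to the stop codon, with or without that codon. In 50, the annotated sequence began with ATG, ran for whole codons and held no stop codon before its last codon. A copy whose annotation ends within a codon, such as Gm10123 with 490 bases, was not counted among them. Their median length was 471 bases, against 802 bases for the matched transcripts, which also carry untranslated ends. Best matches were tied in 4 cases, and for the 20 symbols with a -ps stem the stem named the matched gene each time.

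Gm8186 shows how complete such a copy can be. It lies at chr17:26098991-26099221, minus strand (GRCm38), between annotated genes, and is identical over its whole length to the coding sequence of Snrpg, which encodes the Sm protein G of the spliceosomal snRNPs. It is printed 5′ to 3′ on the transcribed strand from GENCODE M21, with the start and stop codons in capitals.
Gm8186: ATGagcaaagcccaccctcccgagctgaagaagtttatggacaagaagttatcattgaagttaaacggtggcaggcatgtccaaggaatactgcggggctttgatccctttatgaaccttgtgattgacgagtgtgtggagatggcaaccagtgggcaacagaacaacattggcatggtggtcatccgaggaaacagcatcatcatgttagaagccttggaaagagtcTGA

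Identical copies also came from Ppia, the peptidyl-prolyl isomerase cyclophilin A, from Fau, whose product is cleaved into a ubiquitin-like protein and the ribosomal protein eS30, from Gapdh, and from Lsm7, a subunit of the Lsm ring that binds the 3′ end of U6 snRNA. The first 90 bases of these 4 are shown with the start codon in capitals. The first 3 were called lower in Tut1_KO, a result that depended on the test and the libraries, as given below. The last matches a subunit of the ring that binds U6 snRNA, the RNA on which TUT1 acts. They lie at chr9:96895658-96895747, plus strand (Gm10123, matching Ppia), chr16:76403563-76403652, minus strand (Gm9843, matching Fau), chr4:91852580-91852669, minus strand (Gm12671, matching Gapdh) and chr10:78393320-78393409, plus strand (Gm10146, matching Lsm7), each between annotated genes.
Gm10123: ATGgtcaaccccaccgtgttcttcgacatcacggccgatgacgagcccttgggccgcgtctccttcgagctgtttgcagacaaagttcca
Gm9843: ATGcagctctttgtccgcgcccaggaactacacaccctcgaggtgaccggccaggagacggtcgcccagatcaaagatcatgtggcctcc
Gm12671: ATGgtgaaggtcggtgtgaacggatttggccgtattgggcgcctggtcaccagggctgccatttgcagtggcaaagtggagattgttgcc
Gm10146: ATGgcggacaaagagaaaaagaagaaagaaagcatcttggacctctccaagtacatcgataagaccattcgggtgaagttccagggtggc

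In the largest families, a single base set a copy apart from its parent transcript. Gapdh encodes the glycolytic enzyme glyceraldehyde-3-phosphate dehydrogenase, and 7 of the 65 pseudogenes matched it. Gm12671 and Gm10359 were identical to its coding sequence, and Gm7336 spanned part of the untranslated ends and differed by 1 base and 2 gap bases. Of the other 4, each carried 1 substitution, given as the base of Gapdh, the position counted from 1 at the first base of the pseudogene, and the base of the pseudogene. These were A346C in Gm13394, T504C in Gm12033, T385A in Gm5559 and C495T in Gm12537. Each is shown on 41 bases with the matching stretch of Gapdh under it and the differing base in capitals.
Gm13394: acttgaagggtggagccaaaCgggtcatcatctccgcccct
Gapdh: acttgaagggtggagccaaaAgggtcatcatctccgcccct
Gm12033: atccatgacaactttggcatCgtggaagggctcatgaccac
Gapdh: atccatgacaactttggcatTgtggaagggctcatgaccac
Gm5559: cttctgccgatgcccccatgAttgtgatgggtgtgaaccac
Gapdh: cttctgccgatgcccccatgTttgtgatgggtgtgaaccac
Gm12537: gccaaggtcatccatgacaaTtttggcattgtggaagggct
Gapdh: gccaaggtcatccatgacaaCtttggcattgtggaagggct
The stretches lie at chr2:28934244-28934284, minus strand (Gm13394), chr11:20335490-20335530, minus strand (Gm12033), chr5:95862078-95862118, plus strand (Gm5559) and chr4:57371440-57371480, minus strand (Gm12537). Gm13394 sits in an intron of Cfap77 on the same strand, and the other 3 lie between annotated genes.

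Rpl23a, which encodes a protein of the large ribosomal subunit, was the other gene with at least 3 copies among the 65. Rpl23a-ps3 differed from it by A116T, Gm10132 by C246T and Gm10335 by C248T. The substitutions of Gm10132 and Gm10335 fall in the same stretch.
Rpl23a-ps3: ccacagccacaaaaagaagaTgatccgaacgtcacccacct
Rpl23a: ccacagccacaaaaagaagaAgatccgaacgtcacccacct
Gm10132: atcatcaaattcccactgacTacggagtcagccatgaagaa
Rpl23a: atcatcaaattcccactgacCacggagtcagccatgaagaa
Gm10335: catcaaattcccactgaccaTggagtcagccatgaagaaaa
Rpl23a: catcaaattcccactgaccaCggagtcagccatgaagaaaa
They lie at chr14:34170750-34170790, plus strand, chr14:77252049-77252089, minus strand (in an intron of Enox1, opposite strand) and chr10:14523305-14523345, plus strand (in an intron of Adgrg6). Rps12-ps4, one of the pseudogenes called lower in Tut1_KO below, had no substitution but lacked 2 bases of Rps12, capitalised in the second line. Its length was not a whole number of codons. Its stretch is chr7:30484933-30484973, minus strand, within an exon of Nphs1 on the opposite strand.
Rps12-ps4: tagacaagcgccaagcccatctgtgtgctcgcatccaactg
Rps12: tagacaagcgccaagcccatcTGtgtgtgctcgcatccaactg
Among the 5 of lowest identity was Gm8730, which matched Rplp0, a protein of the ribosomal stalk, and carried 12 substitutions. A stretch with 2 of them, A390G and A393G, is shown (chr8:102865384-102865434, minus strand).
Gm8730: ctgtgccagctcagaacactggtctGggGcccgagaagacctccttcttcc
Rplp0: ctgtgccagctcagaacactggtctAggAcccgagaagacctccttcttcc

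The 65 resembled a coding transcript more closely than the processed pseudogenes with fewer counts did, although identity was not part of their selection. Of the 912 rows under 200 counts, 829 had a match, with a median identity of 97.4%. An identity of 99% or more was found for 86.2% of the 65 and for 25.5% of the 829. A sequence that began with ATG, ran for whole codons and held no stop codon before its last was found for 76.9% of the 65. It was found for 29.9% of the 829, and it depends on where the annotation ends as well as on the frame. Among rows aligned over at least 90% of their length, 24 of 51 with 100% identity reached 200 counts, as did 26 of 109 between 99.5% and 100%. None of the 216 rows between 95% and 98% and none of the 189 under 95% did so. Rows matching the same gene are related copies and not independent, so no test was made of these shares. The last pseudogenes inside the threshold were Gm6863 with 225 counts, Gm8730 with 207 and Tmed10-ps with 204, and the first outside it were Rpl17-ps8 and Gm12350 with 194 each and Rpl17-ps3 with 186.

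**Figure D1:**
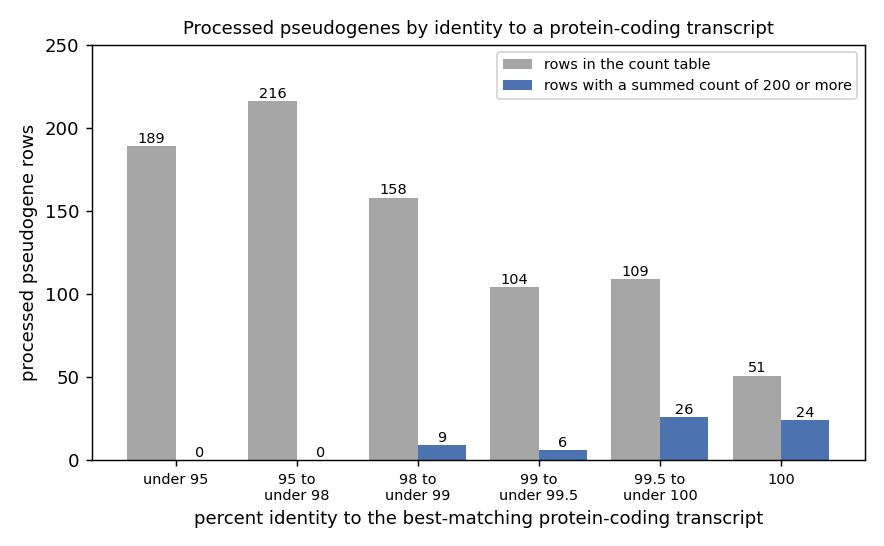
Number of processed pseudogenes (y axis) by percent identity to the best-matching protein-coding transcript (x axis, 6 classes), for alignments over at least 90% of the pseudogene. Grey bars are all those in the count table and blue bars those with a summed count of 200 or more, of which none lies under 98% and 24 lie at 100%.

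As positions, 46 of the 65 lay between annotated genes, 13 in an intron and 6 overlapped an exon, and they were spread over 19 chromosomes. Of the 19 inside genes, 13 lay on the opposite strand of a host gene and 6 on the same strand. Reads of a host gene on the same strand could have been counted with them, and for the others this depends on whether strand was used, which is not stated.

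Together the 65 pseudogenes held 12.3% of all counts in the table. They held 45746 counts or 12.7% (95% exact binomial interval 12.6 to 12.8%) of WT replicate 1 and 50992 counts or 13.0% (12.9 to 13.1%) of WT replicate 2. In Tut1_KO they held 44905 counts or 11.3% (11.2 to 11.4%) and 37079 counts or 12.1% (12.02 to 12.25%). These intervals cover counting error only. Both Tut1_KO libraries were below both WT libraries. The mean share was 12.8% ± 0.224 in WT and 11.7% ± 0.583 in Tut1_KO (SD, n = 2 each), a difference of -1.11 percentage points (two-sided exact permutation test, p = 0.333, the smallest p that 2 against 2 libraries allow). Without Tut1_KO replicate 1 the difference was -0.70 percentage points.

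A few of them carried most of these counts. Gm14303 alone held 12.8% of the counts of the 65 pseudogenes, Gm14303 and Gm10123 together 24.5%, the first 10 held 59.4% and the first 20 held 80.1%. Compared with all processed pseudogenes in the table, the 65 held 92.7% of the counts.

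**Figure D2:**
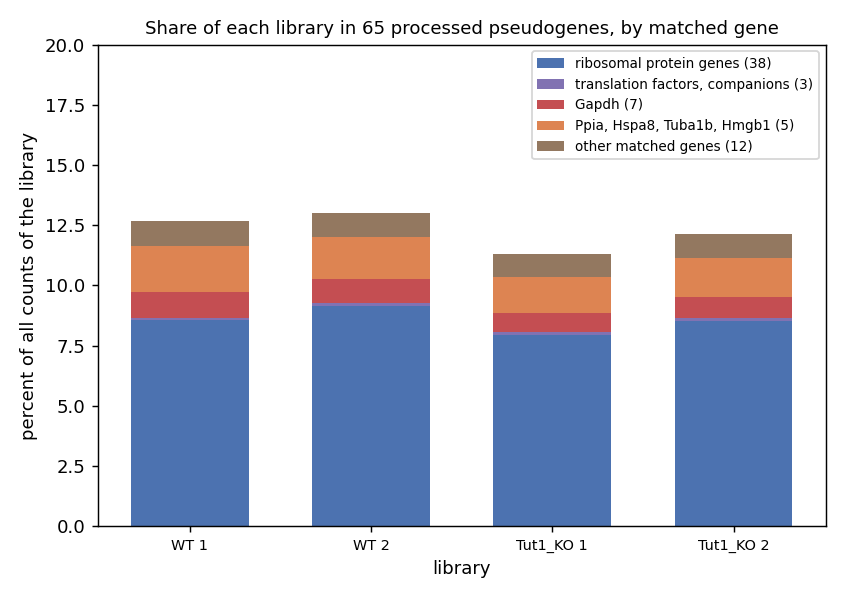
Percent of all counts of each library (y axis) held by the 65 processed pseudogenes in the 4 libraries (x axis), stacked by the kind of matched gene with the number of pseudogenes in brackets. The bars reach 12.7% and 13.0% in WT and 11.3% and 12.1% in Tut1_KO, and ribosomal protein genes make up most of each bar.

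Most of the parents were ribosomal protein genes. Of the 65, 38 matched 32 genes of cytosolic ribosomal proteins and held 69.6% of the counts, or 8.56% and 9.14% of the WT libraries and 7.95% and 8.54% of Tut1_KO. Proteins of the small subunit were matched by 12 pseudogenes and those of the large subunit by 26, with near-equal shares of the counts of the 65 (34.4% and 35.3%). Copies of Gapdh held 7.64% of the counts. The 5 copies of Ppia, Hspa8, Tuba1b and Hmgb1 held 13.8%, most of it in Gm10123. The 3 copies of the translation-related genes Tpt1, Eef1g and Naca held 0.897%. The remaining 12, from Gm8186 with 7970 counts to Tmed10-ps with 204, matched genes in none of the lists and held 8.02%. These 12 included copies of Snrpg, Snrpd2 and Lsm7, which encode proteins of spliceosomal snRNPs, and of Atp5g1, Atp5g2 and Atp5l, which encode subunits of the mitochondrial ATP synthase.

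Among the copies of ribosomal protein genes, a small-subunit copy had the highest level. Gm14303 (matching Rps29) had 5740 and 6412 counts in WT, against 5919 and 4720 in Tut1_KO, or 17648 ± 370 and 16062 ± 469 CPM (mean ± SD, n = 2 each). Gm9843 (matching Fau) had 2576 and 4229 counts in WT, against 2666 and 2230 in Tut1_KO. WT replicate 2 stood above the other 3 libraries for Gm9843, and its level of 9807 ± 2835 CPM in WT had the largest SD among the 12 most abundant. Rps13-ps2 (matching Rps13) had 2272 and 2495 counts against 2238 and 1822, Rps16-ps2 (matching Rps16) had 1235 and 1337 against 1246 and 1072, and Rps12-ps4 (matching Rps12) had 1231 and 1423 against 1067 and 879.

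Among large-subunit copies, Gm4149 (matching Rpl37a) had 2075 and 2312 counts in WT, against 2153 and 1818 in Tut1_KO. Gm10288 (matching Rpl11) had 1903 and 1915 counts against 1893 and 1541, and Rpl31-ps8 (matching Rpl31) had 1726 and 1947 against 1913 and 1623. In CPM, the groups overlapped for each of these 3. Rpl10a-ps1 (matching Rpl10a) had 1620 and 1758 counts against 1506 and 1264, and Gm7536 (matching Rpl27a, in an intron of Naaladl2 on the opposite strand) had 1280 and 1413 against 1244 and 1002. For these 2, both Tut1_KO libraries lay below both WT libraries in CPM. The 3 Rpl23a copies had summed counts of 1106 and 1233 in WT and 1202 and 978 in Tut1_KO, against 141, 145, 154 and 125 counts of Rpl23a itself.

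Outside the ribosomal proteins, Gm10123 (matching Ppia) had 6021 and 5820 counts in WT, against 5190 and 4001 in Tut1_KO, or 17247 ± 1401 and 13844 ± 73.5 CPM. Gm8186 (matching Snrpg) had 2162 and 2098 counts against 1995 and 1715. The groups did not overlap for Gm10123 and overlapped for Gm8186.

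**Figure D3:**
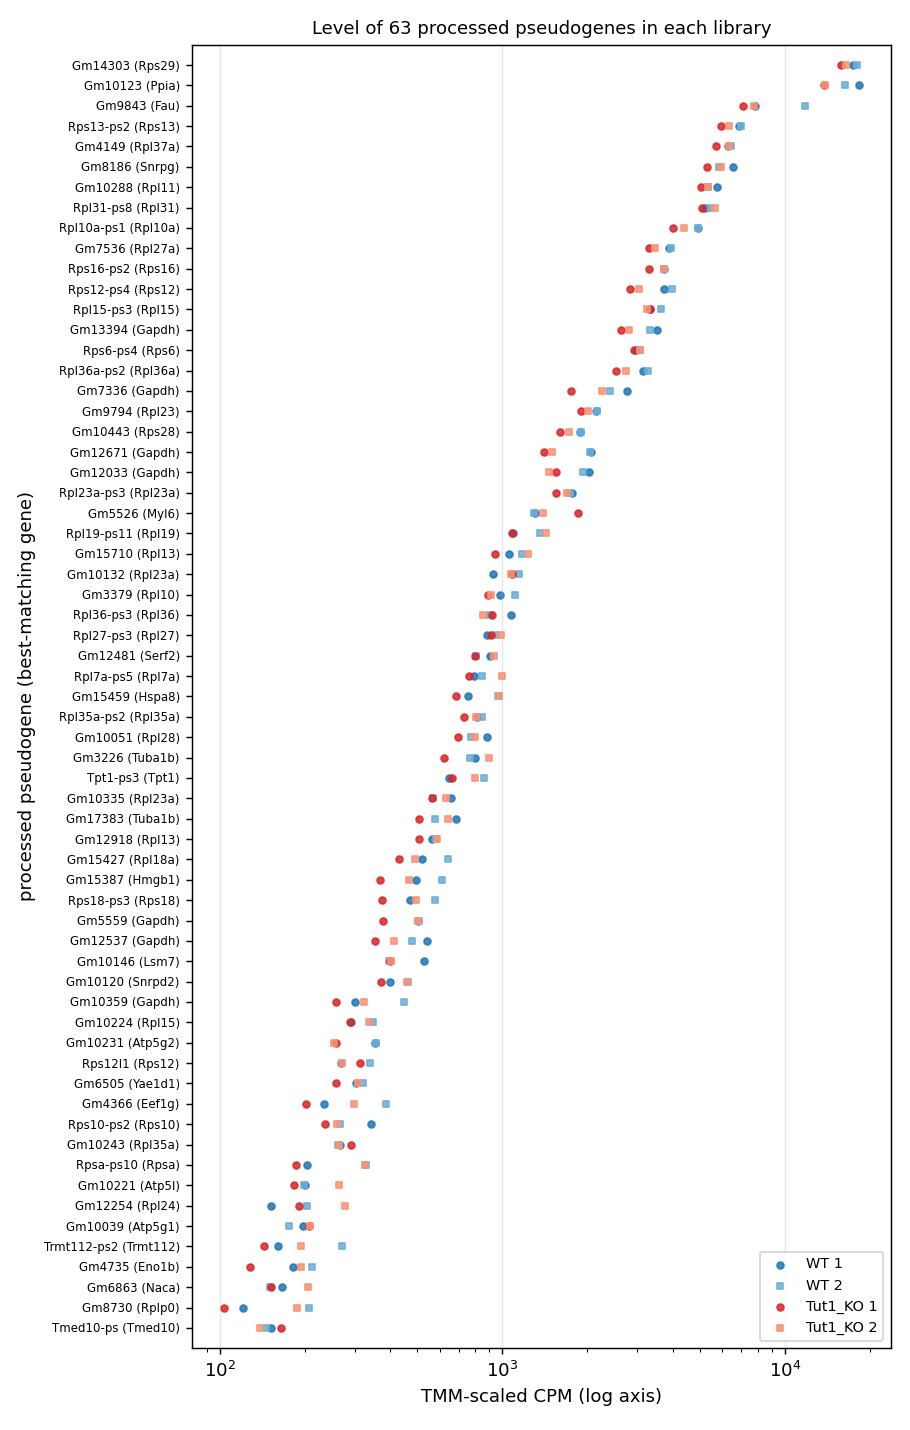
TMM-scaled CPM (x axis, log scale) of 63 of the 65 processed pseudogenes (y axis, ordered by summed count, with the best-matching gene in brackets) in the 4 libraries. Circles and squares are replicates 1 and 2, blue WT and red Tut1_KO. Single values run from 18238 for Gm10123 in WT replicate 1 down to 104 for Gm8730 in Tut1_KO replicate 1, and the 4 points of a pseudogene lie close together on this scale.

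In most pairs the pseudogene had more counts than the gene it was matched to. This held for 45 of the 65, and for 46 when counts were divided by transcript length. Gm14303 had 22791 counts over the 4 libraries, while Rps29 had 16, 10, 14 and 8, so that the pseudogene held 99.8% of the counts of the pair. Per kilobase of transcript, this was 133281 counts for Gm14303 and 123 for Rps29. Gm10123 held 96.1% of its pair with Ppia (240 and 225 counts of Ppia in WT, 214 and 179 in Tut1_KO). Gm9843 held 92.6% of its pair with Fau, Gm4149 held 95.9% with Rpl37a and Rps13-ps2 held 94.0% with Rps13.

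Some pairs split the other way. Rps10-ps2, singled out with Gm10120 after their values were seen, had 113, 95, 89 and 75 counts in the 4 libraries. Rps10 had 5798 and 6178 in WT and 5515 and 4264 in Tut1_KO, so the pseudogene held 1.68%. It carries 5 substitutions. Gm10120 held 9.50% of its pair with Snrpd2. In all, 10 pseudogenes held over 90% of their pair and 6 under 10%.

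The share of the pair was highest among identical copies, but it varied widely in each class. Its median was 83.3% for the 24 identical copies, 57.0% for the 18 with 1 mismatch and 59.8% for the 23 with 2 or more differences. Identical copies ranged from 7.48% (Gm10359 with Gapdh) to 99.8% (Gm14303 with Rps29). For identical copies the bases shared with the parent cannot tell the sources of a read apart, whatever the split. When copies of the same gene were added up, they held more than 50% of the counts of their family (the gene and all its copies in the table) in 43 of the 52 families and over 90% in 9.

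The Gapdh family showed the split among several copies of 1 gene. Gapdh itself had 1543 and 1700 counts in WT, against 1284 and 1024 in Tut1_KO, and its 7 copies together had 3865 and 3986 in WT and 3129 and 2667 in Tut1_KO. The copies thus held 68.0 to 70.1% of the family in each library, where the family counts all 34 Gapdh copies in the table and those outside the 65 add 558 counts. Gm13394 had the most counts (1162, 1193, 989 and 808), followed by Gm7336 (908, 859, 659 and 649), Gm12671 (682, 733, 527 and 433) and Gm12033 (670, 689, 582 and 420). Gm5559 (166, 181, 142 and 145), Gm12537 (178, 171, 133 and 119) and Gm10359 (99, 160, 97 and 93) had fewer. Gm12671 and Gm10359 are both identical to the coding sequence of Gapdh over 1002 bases, and their summed counts were 2375 and 449.

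The split of a pair lay closer to counting error than the level of the pseudogene did. Gm8186 held 60.4% and 60.1% of its pair with Snrpg in WT and 60.6% and 61.1% in Tut1_KO, and Gm10123 held between 95.7% and 96.3% in every library. For Gm9843, whose level was highest in WT replicate 2, Fau was highest there too (328 counts against 184 to 233), and the share of the pair stayed between 92.0% and 92.9%. Not every pair moved together. Changes between replicates were compared in the 57 pairs whose matched gene had 200 or more counts. The pseudogene and its gene changed in the same direction in 30 for WT and in 42 for Tut1_KO. In WT the pseudogene was higher in replicate 2 in 37 and the gene in 26, and in Tut1_KO in 48 and 43. Many signs would thus agree without any link within a pair. The correlation of the changes was 0.37 in WT and 0.29 in Tut1_KO. Pairs with a shared gene, as for Gapdh, are not independent. Set against counting error, the split over the 4 libraries had a chi-square per degree of freedom with a mean of 1.63 and a median of 1.103 over the 65 pairs, while that of the share of the pseudogene in all counts had a mean of 8.79 and a median of 3.63. The value for the split was below that for the level in 55 of 65 pairs and in each of the 12 most abundant. Counting error alone would give a mean of 1 and a median of 0.789, so the split also varied by more than counting error. The matched genes mostly had fewer counts than the pseudogenes, so a change in the split was harder to detect than one in the level. The highest values for the split, named after they were seen, were 8.69 for Rpl36-ps3 with Rpl36 and 7.56 for Gm3379 with Rpl10. The range of the share over the 4 libraries had a median of 4.10 percentage points, but a share near 0 or 100% can move little in points, whatever the counts of the matched gene do.

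**Figure D4:**
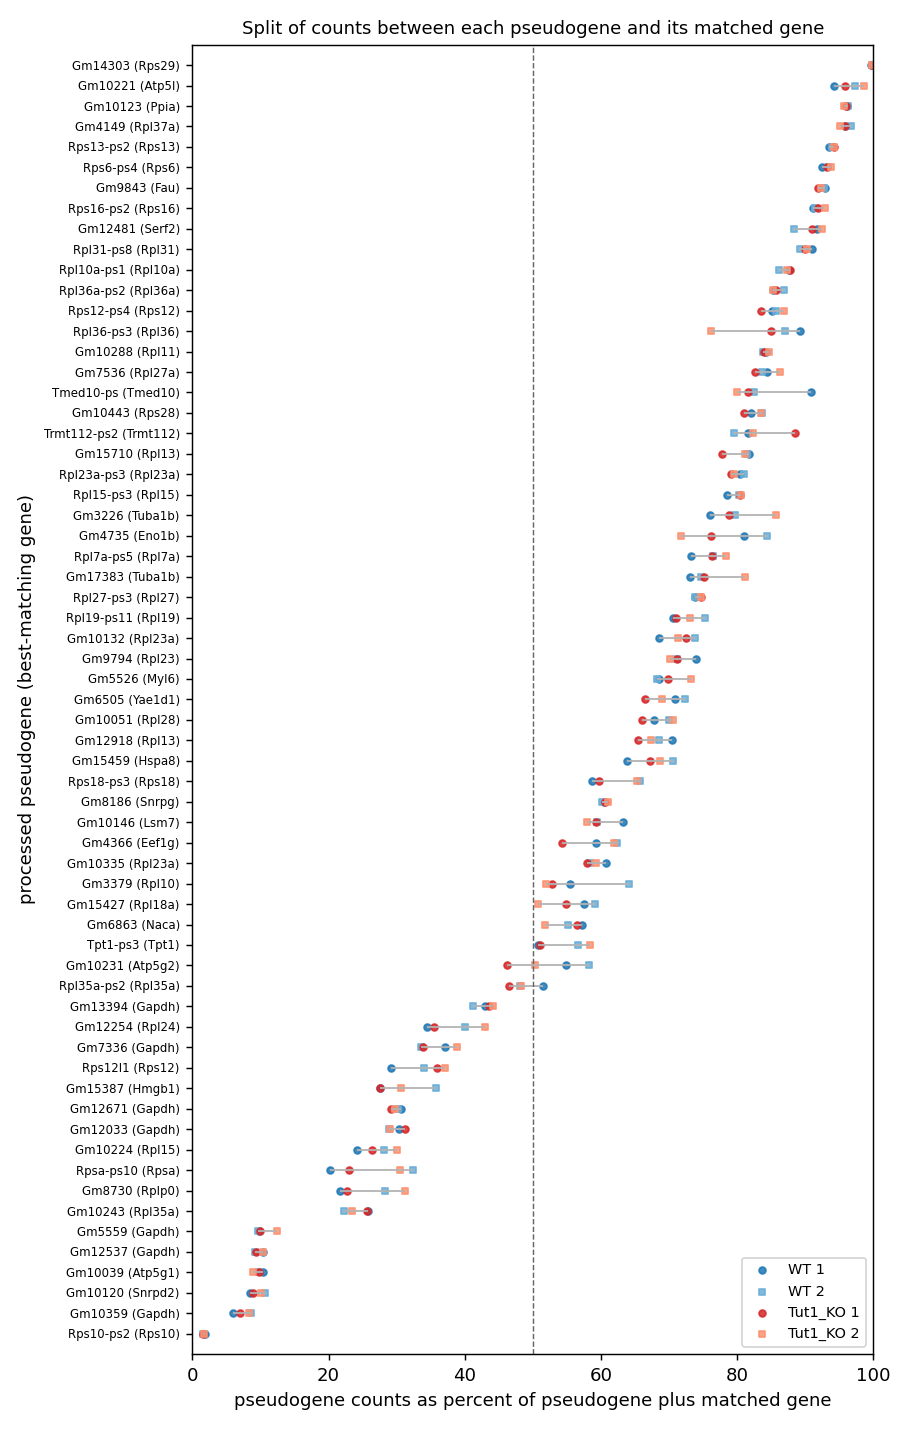
Counts of each processed pseudogene as a percent of its own counts plus those of the matched gene (x axis) for 63 pairs (y axis, ordered by the share over all libraries), with 1 point per library and a grey line over their range. Blue is WT and red Tut1_KO, and the dashed line marks 50%. The points of Gm8186 nearly coincide, while those of some other pairs, such as Rpsa-ps10 and Rpsa, spread more widely, and points near 0 or 100% have little room to spread.

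The order of the 65 by level was nearly the same in every library. Spearman's rho across the 65 lay between 0.979 and 0.989 for the 6 pairs of libraries, a description across pseudogenes that share each library's depth and alignment. Between replicates, the ratio of CPM had a median of 1.12-fold in WT and 1.12-fold in Tut1_KO, against 1.13-fold and 1.15-fold for the 1138 protein-coding genes with at least 200 counts and 1.11-fold and 1.09-fold for the 44 matched genes with that many. The spread still exceeded counting error, with a mean chi-square divided by its degrees of freedom of 7.80 for the WT replicates and 4.57 for those of Tut1_KO, against 2.11 and 2.29 for those protein-coding genes, and medians of 1.77 and 2.56 against 0.750 and 0.959. The larger counts of the pseudogenes also make the same ratio count for more in this measure. For a pair of replicates, counting error alone gives a lower median than the 0.789 stated above for 4 libraries, so that value is no reference here.

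The replicates lay furthest apart for Gm8730 (40 and 74 counts in WT, 39 and 54 in Tut1_KO), Rpsa-ps10 (67 and 118, 70 and 94) and Gm4366 (77 and 139, 76 and 86). Gm8730 and Rpsa-ps10 match the ribosomal proteins Rplp0 and Rpsa, and Gm4366 matches the elongation factor subunit Eef1g. In each of these 3, replicate 2 was higher in both groups, by 0.56 to 0.86 on the log2 scale of CPM. They lay closest for Gm10231 (matching Atp5g2, with 117 and 128 counts in WT and 97 and 73 in Tut1_KO), Gm9794 (matching Rpl23, 708 and 774, 715 and 578) and Gm7536, whose replicates differed by at most 0.08 on that scale.

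Between the groups, most of the 65 had lower estimates in Tut1_KO, by small amounts that rested largely on Tut1_KO replicate 1. All 65 had enough counts to be tested among the 5878 genes of the edgeR quasi-likelihood fit. The log2 fold change, Tut1_KO over WT, was negative for 50 and positive for 15, with a median of -0.14 and a range of -0.50 to 0.38. Over all tested genes the median was -0.01 and 51.6% were negative. The log2 level of the 65, set against the mean of each over the 4 libraries, had a median of -0.15 in Tut1_KO replicate 1 but 0.02 in replicate 2, against 0.02 and 0.10 in WT. Without Tut1_KO replicate 1 the median log2 fold change was -0.05 with 40 negative, without WT replicate 2 it was -0.10 with 40 negative, and without Tut1_KO replicate 2 it was -0.22 with 56 negative. Scaling by total counts alone gave 43 negative and 22 positive, with a median of -0.07, against a median of 0.05 over all genes. After adjustment over all tested genes, 4 of the 65 had fallen and none had risen at an adjusted p below 0.05, where 0.663% of all tested genes had fallen, 1.4% had risen and 2.06% were called in either direction. With the replicate number as a block, 3 were called, where 1.29% of all genes were. At an unadjusted p below 0.05, 13 of the 65 were lower, against 6.31% of all tested genes, and 1 was higher, against 7.88%. Both Tut1_KO libraries were below both WT libraries in CPM for 23 of the 65, where 20.8% of tested genes were, and above them for 4, where 22.1% were. The groups overlapped for the other 38.

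The 4 that fell were Gm12671, Gm9843, Rps12-ps4 and Gm10123. Gm12671, an identical copy of Gapdh, had 2057 ± 13.0 CPM in WT and 1452 ± 73.1 CPM in Tut1_KO (mean ± SD, n = 2 each), which is a change of -0.50 ± 0.12 on the log2 scale (SE; edgeR, adjusted p = 0.0108). Gm10123 changed by -0.32 ± 0.07 (edgeR, adjusted p = 0.0112). Rps12-ps4 fell from 3852 ± 174 to 2944 ± 154 CPM, by -0.39 ± 0.10 (edgeR, adjusted p = 0.0286), a call that was lost with the replicate number as a block (edgeR, adjusted p = 0.0557) and with scaling by total counts alone (edgeR, adjusted p = 0.0629). For Gm9843 the change was -0.40 ± 0.11 (edgeR, adjusted p = 0.0313), and it rested on WT replicate 2: without that library it was -0.08 ± 0.12 (edgeR, adjusted p = 0.841). Scaling by total counts alone also ended this call (edgeR, adjusted p = 0.0905). DESeq2, which called 0.215% of the 3713 genes to which it gave an adjusted p, called none of the 65 and put 7 at an unadjusted p below 0.05, as it did 3.71% of the 5878 genes. When Tut1_KO replicate 1 or 2 was left out, edgeR called none of the 65 either, but it then called only 0.051% and 0.595% of all genes. At an unadjusted p below 0.05 these fits put 7 and 22 of the 65, against 9.37% and 11.4% of all genes. Without WT replicate 1, where 1.28% of all genes were called, only Gm9843 of the 65 was below the threshold, and without WT replicate 2, where 1.84% were, only Gm10123 was.

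The matched genes of these 4 also had lower estimates. Gapdh changed by -0.44 (edgeR, adjusted p = 0.00648), the only one of the 51 matched genes tested that passed the threshold, and 35 of the 51 were lower. The estimates were -0.19 for Ppia, -0.27 for Fau and -0.37 for Rps12, and none of these 3 passed it. The pseudogene and its matched gene were compared on the same libraries and may share reads, so their values are given side by side and are not independent. When the counts of the pseudogenes were added to those of their matched genes before the fit, 4 of the 52 sums had fallen, where 2.1% of all genes in that fit were called. They were Gapdh (-0.40 ± 0.08, edgeR, adjusted p = 0.00147), Ppia (-0.31 ± 0.08, adjusted p = 0.0124), Fau (-0.39 ± 0.10, adjusted p = 0.0297) and Rps12 (-0.36 ± 0.10, adjusted p = 0.0297). The Fau sum had 2772 and 4557 counts in WT, against 2899 and 2414 in Tut1_KO, and it too rested on WT replicate 2, without which it changed by -0.07 ± 0.11 (edgeR, adjusted p = 0.857). Without Tut1_KO replicate 1 none of the 52 sums passed the threshold, without Tut1_KO replicate 2 only Gapdh did, without WT replicate 1 only Fau and Gapdh, and without WT replicate 2 only Gapdh and Ppia. Of the 52 sums, 42 were lower, with a median of -0.10.

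By kind of parent, each of the 7 Gapdh copies was lower, with a median of -0.38 and a range of -0.50 to -0.21, and 1 of them passed the test. The groups did not overlap for 5 of the 7, where both Tut1_KO libraries were below both WT libraries for 20.8% of all tested genes. Gapdh copies are near-identical to each other and to Gapdh, so they are not 7 separate measurements. Of all tested genes, 51.6% were lower and 0.663% had fallen past the threshold. Of the 12 small-subunit copies, 11 were lower (median -0.16) and 2 passed the test. Of the 26 large-subunit copies, 18 were lower (median -0.08) and none passed it, and 3 were lower at an unadjusted p below 0.05, where 6.31% of all tested genes were. The most abundant, Gm14303, had an estimate of -0.14 ± 0.07 (edgeR, adjusted p = 0.394), and Rpl31-ps8 one of 0.01 ± 0.09 (edgeR, adjusted p = 0.985). All 5 copies of Ppia, Hspa8, Tuba1b and Hmgb1 were lower, 1 of them past the threshold, as were 2 of 3 copies of translation-related genes and 7 of 12 of the others. In these last groups none passed the edgeR test, with 0 and 2 at an unadjusted p below 0.05. The spliceosomal copies Gm8186, Gm10146 and Gm10120 gave -0.14 ± 0.09 (edgeR, adjusted p = 0.54), -0.20 ± 0.18 (edgeR, adjusted p = 0.694) and -0.07 ± 0.18 (edgeR, adjusted p = 0.918).

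The 4 pseudogenes with both Tut1_KO libraries above both WT libraries included Gm5526 (matching the myosin light chain Myl6) and Gm10039 (matching Atp5g1), named after their values were seen. Gm5526 had 430 and 465 counts in WT, against 697 and 400 in Tut1_KO, with an estimate of 0.32 ± 0.13 on the log2 scale (edgeR, adjusted p = 0.222). Its level was set apart by Tut1_KO replicate 1. None of the 4 passed the threshold.

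**Figure D5:**
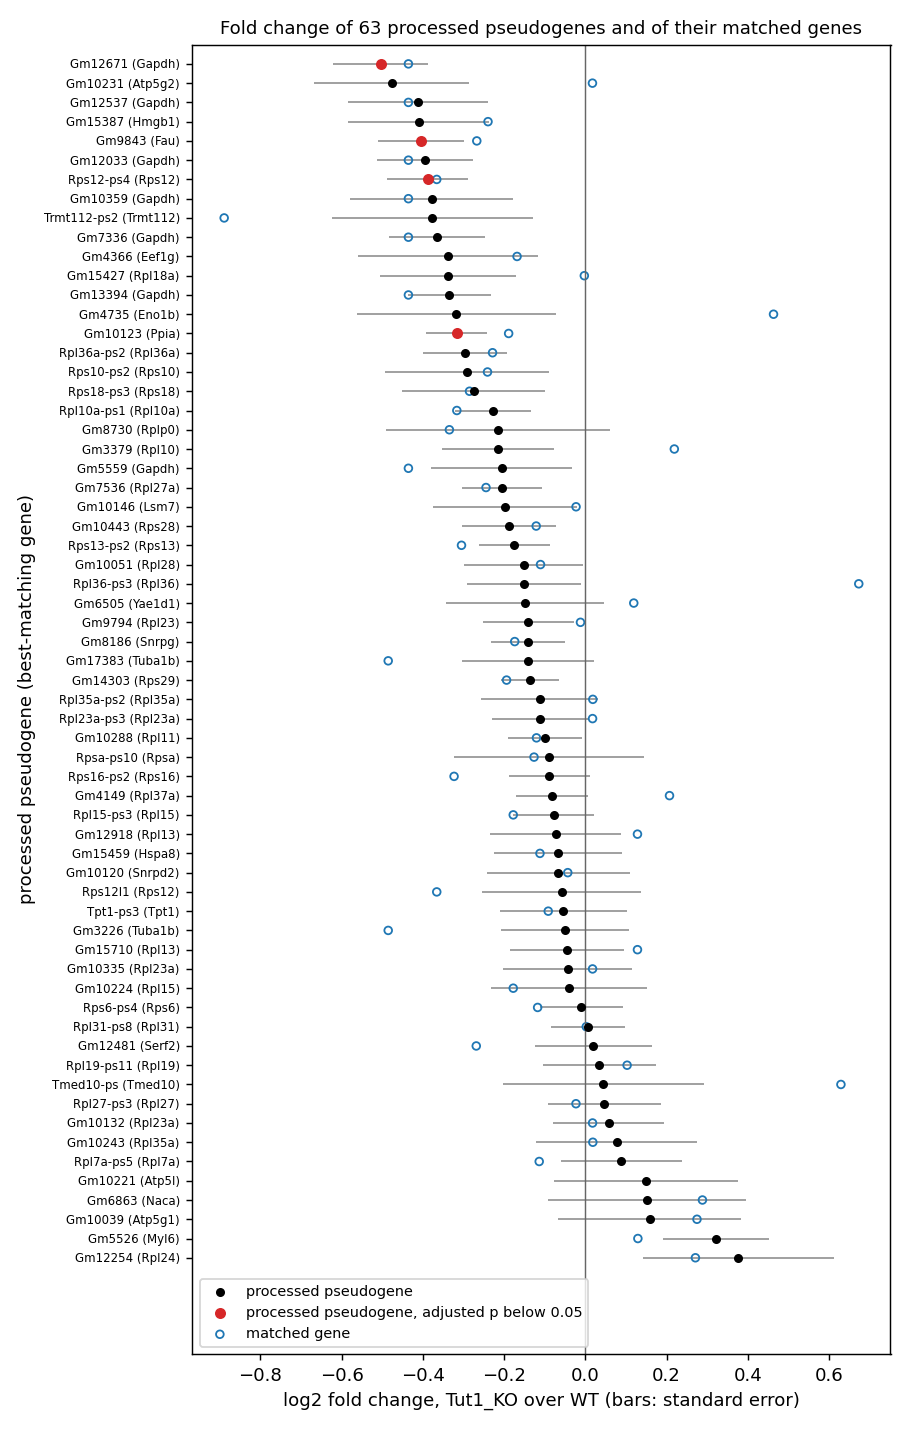
Log2 fold change, Tut1_KO over WT (x axis), of 63 of the 65 processed pseudogenes (filled points, with bars of 1 standard error from the edgeR fit) and of their matched genes (open blue circles, drawn where tested), ordered by the change of the pseudogene (y axis). Red points are the 4 with an adjusted p below 0.05, which lie between -0.50 and -0.32, and most of the points lie below 0.

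The genes around them gave the following. Of all tested genes, 51.6% were lower, 0.663% had fallen and 1.4% had risen past the threshold. At an unadjusted p below 0.05, 6.31% of them were lower and 7.88% higher. Of 84 tested cytosolic ribosomal protein genes, 65 were lower, with a median of -0.12, and 1 had fallen (Rps20) and 1 had risen (Rpl17) past the threshold. At an unadjusted p below 0.05 there were 14 of the 84. These genes held 11.8% and 11.8% of the WT libraries and 10.78% and 10.97% of Tut1_KO. The 116 tested processed pseudogenes under 200 counts had a median of -0.08, with none past the threshold and 5 at an unadjusted p below 0.05. The 40 tested rows of other pseudogene biotypes had a median of -0.04, with none past the threshold and 6 at an unadjusted p below 0.05. Of 14 tested translation-related genes 1 had fallen (Eef1d), of 7 tested glycolytic genes 1 had fallen (Gapdh) and 1 had risen (Ldhb), and of 19 other abundant genes 1 had risen (Tuba1a).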

How the data were processed

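Poly(A)-enriched RNA of dorsal and medial palliums of E11.5 mouse embryos was sequenced on a Nanopore instrument in 4 libraries (2 WT, 2 labelled Tut1 knockout). The authors used minimap2 2.24 to align reads to the mouse transcriptome of Ensembl 102, and FLAIR 2.0.0. The deposited table holds raw read counts for 16449 genes, with no normalization. How isoforms were summed, the treatment of reads with several alignments and the use of strand are not given in the sources used here.

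GENCODE M21 (GRCm38) supplied biotypes, positions and transcripts and matched 16436 genes, leaving 13 unmatched. Processed pseudogenes with a summed count of 200 or more were selected. Each was matched with blastn 2.17.0 (plus strand, e-value at most 1e-10, up to 500 targets) to the protein-coding transcript of highest bit score, and ties went to a multi-exon, then the shortest transcript. Sequences were read from the GENCODE M21 transcripts.

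Counts were fitted with edgeR 4.0.16 in R 4.3.3 (filterByExpr with minima of 10 for the count and 15 for the total, TMM, glmQLFit and glmQLFTest, two-sided, no covariate) over 5878 genes, with Benjamini-Hochberg adjustment over all of them and a threshold of 0.05. The fit had 2 residual and 37.5 prior degrees of freedom. CPM used TMM-scaled library sizes. Standard errors are the absolute log2 fold change over the square root of the F statistic. Alternatives were median-of-ratios scaling, total counts, no filter, DESeq2 1.42.0, the replicate number as a block, each library left out (the lone library of its group was then assumed to vary like the others), other thresholds, added transcribed processed pseudogenes, and counts summed with the matched gene. On simulated counts for the 5878 genes, with 200 changed in each of 5 simulations of 2 against 2 libraries, edgeR found 33.8% of 2-fold and 95.5% of 4-fold changes, and DESeq2 12.3% and 64.1%.

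Named were the 12 most abundant, every one past the threshold, the 3 with the largest and the 3 with the smallest replicate differences, the 3 on either side of 200 counts, the 5 of lowest identity, and genes with 3 or more copies. The pseudogenes and the gene lists were chosen with earlier results of these data known. Totals of 305642 to 397150 counts and 2 libraries a group limit the precision. Values of 2 of the 65 are not reported here one by one, and they are counted in the sums.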

Additional observations from a re-analysis of the deposited data

How the results depend on the processing

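The number of the 65 pseudogenes called at an adjusted p below 0.05 was 4 and depended on the test and the libraries. It was 4 with median-of-ratios scaling and without a filter. Taking the 103 with 100 or more counts or the 74 with transcribed processed pseudogenes added brought in no further call. These settings, and the 46 with 500 or more, read the same fit and could not lose the 4, which all have over 500 counts. With counts summed with the matched gene, 4 of 52 sums were called, and between 0 and 2 when a library was left out, an alternative chosen after seeing the data. It was 2 with total counts only (Gm10123 and Gm12671), 0 with DESeq2, and between 0 and 1 when a library was left out. Over all tested genes, edgeR called 121, 124 with median-of-ratios scaling, 129 with total counts only and 141 without a filter, DESeq2 8, and the fits without a library 3 to 108. The median log2 fold change of the 65 was negative in every fit run, from -0.22 to -0.05, and the difference in their share of a library was negative in every setting run, from -1.52 to -0.70 percentage points. Of the fold changes of the 13 named pseudogenes most abundant or called (or of their sums with the matched gene), 107 of 130 kept their direction and side of the threshold, 21 kept only the direction and 2 changed sign. All 21 were of the 4 called pseudogenes, whose calls were lost there. The others were not called at the start, so for them keeping the side means only that no call appeared. The 2 changes of sign were of Rpl31-ps8, which ranged from -0.0691 to 0.0799 when a library was left out (-0.0286 without WT replicate 1, -0.0691 without Tut1_KO replicate 2). The causes were not tested.

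The labels number the replicates alike in both groups and do not say whether same-numbered libraries were paired. Deviations of same-numbered libraries from their group means had a correlation of -0.06 across genes, which cannot exclude a pairing. Among the 57 pairs whose matched gene had 200 or more counts, the pseudogene was higher in replicate 2 in 37 for WT and 48 for Tut1_KO. With the replicate number as a block, 3 of the 65 were called (Gm9843, Gm10123 and Gm12671) and 76 genes in all, or 1.29%, and the median log2 fold change of the 65 was -0.14.

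Depth limits the less abundant pseudogenes most: those near the threshold rested on about 50 counts a library, and their standard errors were about 0.25 on the log2 scale.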
